A study of Rattus norvegicus with 4 samples.

Results

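The 7 genes described here set the transmitter that a neuron releases, and they were read across a spatial transcriptome of rat trigeminal nerve. They were taken by symbol from the 32623 genes of the deposited feature list, and all 7 were found. The inhibitory set held Gad1, Gad2, Slc32a1 and Slc6a5, and the excitatory set held Slc17a6, Slc17a7 and Slc17a8. The tissue came from adult male Sprague-Dawley rats of wild type genotype in which the trigeminal root had been compressed on 1 side, a model of trigeminal neuralgia (TN). Root, ganglion and proximal branches of the compressed side filled 3 Visium capture areas, TN1, TN2 and TN3, with 1 animal each. The fourth area, the healthy control (HC), held tissue of the healthy side from 2 animals on 1 area, without a map of spots to animals, and counted as 1 sample. The series description takes these 2 from the same 3 rats, whereas the methods speak of sham operation, so that both sides of a rat may have been used. Condition and capture area therefore cannot be told apart for HC.

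Gad1 and Gad2 encode the 2 glutamate decarboxylases that make GABA. Slc32a1 encodes VGAT, the transporter that loads GABA and glycine into synaptic vesicles, and Slc6a5 encodes GlyT2, the plasma membrane glycine transporter of glycinergic neurons. Slc17a7, Slc17a6 and Slc17a8 encode VGLUT1, VGLUT2 and VGLUT3, which load glutamate into vesicles. Primary sensory neurons of the trigeminal ganglion are glutamatergic, and the brainstem nuclei into which the trigeminal root runs hold GABAergic and glycinergic neurons beside glutamatergic ones.

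The stretches just before the start sites of 6 of these genes are shown because 4 of them were high in the same places of the tissue and the other 2 were spread more widely. Each is the 250 bases upstream of the RefSeq start, from the GRCr8 table in which all 7 genes were found. Capitals mark matches on either strand to 4 motifs. These are the GC box, GGGCGG, which Sp1 family factors bind, the TATA box, with the letters TATAAA, a core of the RE1 element that the repressor REST binds, searched as GGACAG, and the homeodomain core, searched as TAATTA. The order is Gad1 at chr3:75777202-75777451, Gad2 at chr17:89671468-89671717, Slc32a1 at chr3:167686995-167687244, Slc6a5 at chr1:108781303-108781552, Slc17a6 at chr1:110348197-110348446 and Slc17a7 at chr1:104785955-104786204. All 6 lie on the plus strand.
Gad1: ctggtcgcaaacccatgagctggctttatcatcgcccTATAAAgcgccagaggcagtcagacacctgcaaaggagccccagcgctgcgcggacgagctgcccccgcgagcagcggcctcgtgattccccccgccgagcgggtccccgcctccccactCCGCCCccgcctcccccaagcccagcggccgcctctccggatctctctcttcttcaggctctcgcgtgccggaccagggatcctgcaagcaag
Gad2: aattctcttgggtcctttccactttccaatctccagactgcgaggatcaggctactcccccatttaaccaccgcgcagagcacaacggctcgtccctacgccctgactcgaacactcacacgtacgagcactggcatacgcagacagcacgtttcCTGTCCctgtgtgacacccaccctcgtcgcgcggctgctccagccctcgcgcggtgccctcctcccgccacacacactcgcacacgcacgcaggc
Slc32a1: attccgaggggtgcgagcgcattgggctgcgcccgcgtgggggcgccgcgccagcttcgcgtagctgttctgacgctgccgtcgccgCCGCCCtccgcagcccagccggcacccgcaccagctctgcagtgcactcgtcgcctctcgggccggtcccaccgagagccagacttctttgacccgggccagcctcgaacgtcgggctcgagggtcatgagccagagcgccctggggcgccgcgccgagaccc
Slc6a5: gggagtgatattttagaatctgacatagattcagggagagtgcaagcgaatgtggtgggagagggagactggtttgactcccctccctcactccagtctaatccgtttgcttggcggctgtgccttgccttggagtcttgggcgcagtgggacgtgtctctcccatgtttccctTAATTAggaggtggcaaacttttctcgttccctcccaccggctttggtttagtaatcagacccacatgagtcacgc
Slc17a6: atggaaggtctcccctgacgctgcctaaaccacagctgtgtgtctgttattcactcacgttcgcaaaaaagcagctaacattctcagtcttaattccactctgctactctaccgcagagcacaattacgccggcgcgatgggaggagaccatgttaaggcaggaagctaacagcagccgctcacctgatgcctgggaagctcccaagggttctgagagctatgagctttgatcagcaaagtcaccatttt
Slc17a7: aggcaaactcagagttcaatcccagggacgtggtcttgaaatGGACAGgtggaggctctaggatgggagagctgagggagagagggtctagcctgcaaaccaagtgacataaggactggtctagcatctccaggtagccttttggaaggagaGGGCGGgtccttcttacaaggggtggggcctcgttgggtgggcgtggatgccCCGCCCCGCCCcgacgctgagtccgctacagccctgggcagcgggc

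None of the 5 motifs searched was found in all 4 windows of the inhibitory set. A GC box, which 30.5% of all 33469 promoter windows of this length held, lay 93 bases before the start of Gad1 and 163 bases before that of Slc32a1, was at 3 places before Slc17a7, and was not among the letters shown for Gad2, Slc6a5 or Slc17a6. The TATA box, held by 12.9% of windows, was found only in the Gad1 window, 213 bases before the start. Homeodomain core letters, held by 4.86% of windows, were found only before Slc6a5, at 76 bases. The RE1 core, held by 18.2%, lay 95 bases before Gad2 and 208 bases before Slc17a7. An E-box (CANNTG), which 65.5% of windows held, was at 1 place before Gad1 and Slc6a5, at 2 before Slc17a6 and Slc17a7, and at none before Gad2 and Slc32a1. Before Slc17a7 the RE1 core shared bases with an E-box, and 2 of the GC boxes shared a base. The GC content was 68.4% for Gad1, 62% for Gad2, 73.6% for Slc32a1, 52.4% for Slc6a5, 50.8% for Slc17a6 and 61.2% for Slc17a7, against a median of 51.2% over all windows. A match of letters is a description and not a bound site.

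Each spot of a capture area could hold several cells or parts of cells. The areas held 1587, 1256, 1917 and 2013 spots for TN1, TN2, TN3 and HC, with 23546025, 38769935, 32239597 and 41335930 unique molecular identifiers (UMIs, 1 for each captured RNA molecule). The median was lowest in TN1, 9487 UMIs per spot, and highest in TN2, 30808, with 14480 in TN3 and 14616 in HC. Of 3573 distinct barcodes, 2337 occurred in more than 1 area. A Visium barcode names an array position, so this was no sharing of cells. Levels are given as CPM, the UMIs of a gene for every 1000000 UMIs of the same spots. Intervals on levels and shares are 95% exact intervals that cover counting error only.

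Inhibitory transmitter genes were a matter of TN1 and TN2. Gad1 had 365 UMIs in TN1 (15.5 CPM), 231 in TN2 (5.96 CPM), 29 in TN3 (0.90 CPM) and 28 in HC (0.677 CPM). Gad2 gave 262 UMIs in TN1 (11.1 CPM), 86 in TN2 (2.22 CPM), 7 in TN3 (0.217 CPM) and 7 in HC (0.169 CPM). For both decarboxylases TN1 stood highest and TN2 next, while TN3 and HC lay within each other's counting intervals. Slc32a1 gave 561 UMIs in TN1 (23.8 CPM), 215 in TN2 (5.55 CPM), 2 in TN3 (0.0620 CPM) and 3 in HC (0.0726 CPM). Slc6a5 gave 707 UMIs in TN1 (30 CPM), 275 in TN2 (7.09 CPM), 6 in TN3 (0.186 CPM) and 8 in HC (0.194 CPM). Thus 99.4% of all Slc32a1 UMIs, 98.6% of those of Slc6a5, 96.1% of those of Gad2 and 91.3% of those of Gad1 lay in TN1 and TN2. Whether an area held fewer cells of a type or less RNA per cell cannot be told apart in these sums.

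The 2 areas without a strong inhibitory signal were alike for Slc32a1, Slc6a5 and Gad2 as far as their counts could show. The ratio of TN3 to HC was 1.28 for Gad2 (0.384 to 4.28), 0.855 for Slc32a1 (0.0714 to 7.46) and 0.962 for Slc6a5 (0.275 to 3.16). For Gad1 it was 1.33 (0.762 to 2.32). TN1 was above HC by 22.9-fold for Gad1 (15.6 to 34.9) and 65.7-fold for Gad2 (31.4 to 165). For Slc32a1, with 3 UMIs in HC, the ratio of TN1 to HC was 328 with an interval from 112 to 1597. TN1 was above TN2 as well, by 2.60-fold for Gad1 (2.20 to 3.08), 5.02-fold for Gad2 (3.92 to 6.48), 4.30-fold for Slc32a1 (3.66 to 5.05) and 4.23-fold for Slc6a5 (3.68 to 4.88). The step from TN2 to TN1 was thus smaller for Gad1 than for the other 3, with no overlap of the counting intervals.

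Excitatory genes were abundant in every area. Slc17a6 had 2406 UMIs in TN1 (102 CPM), 2858 in TN2 (73.7 CPM), 1217 in TN3 (37.7 CPM) and 3404 in HC (82.3 CPM). HC thus lay within the TN range, and TN3 was lowest. Slc17a7 had 3799 UMIs in TN1 (161 CPM), 4929 in TN2 (127 CPM), 2675 in TN3 (83.0 CPM) and 10220 in HC (247 CPM). Here HC stood above all 3 TN areas. Slc17a8, which marks a smaller class of glutamatergic neurons, gave 12 UMIs in all, of which TN1 held 4, TN2 held 1, TN3 held 0 and HC held 7, each in a spot of its own. The 0 in TN3 allows a share of up to 0.156% of its spots. The ratio of TN3 to HC had a counting interval from 0 to 0.89, so TN3 was below HC beyond counting error. The intervals were 0.215 to 3.95 for TN1 to HC, 0.00338 to 1.19 for TN2 to HC and 0.652 to 324 for TN1 to TN2. These pairs were not told apart at this depth. The step from TN3 to HC rests on the 7 UMIs of HC, and spread between animals is not covered.

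**Figure D1:**
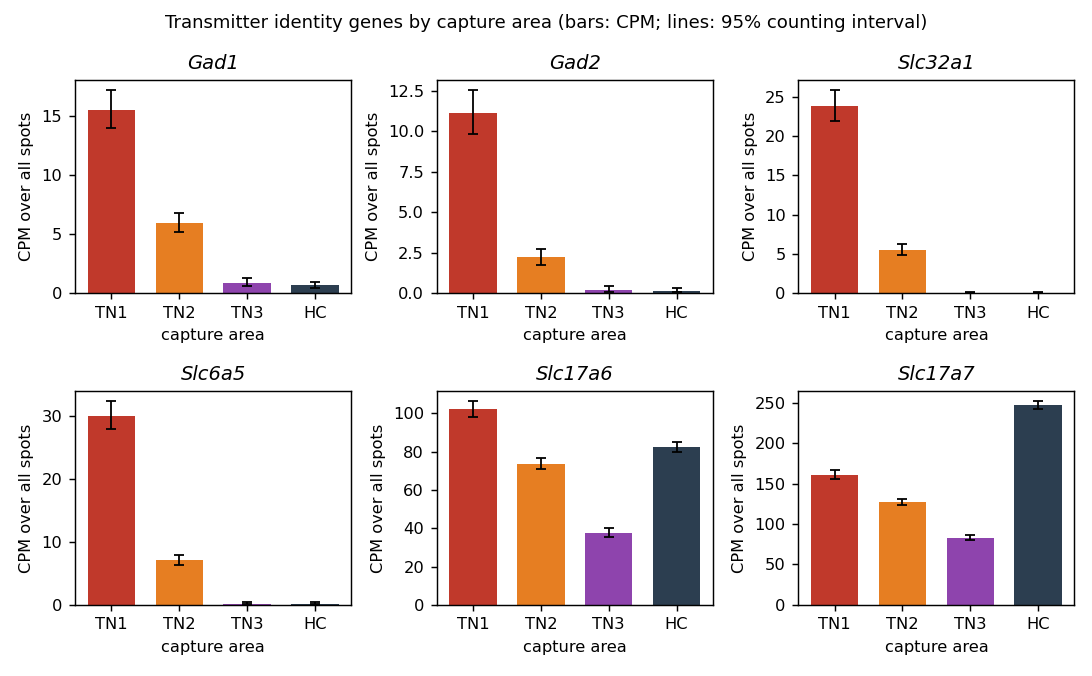
Bars give CPM over all spots (y axis) of 6 genes in the 4 capture areas (x axis), with 95% exact Poisson intervals as lines. The 4 inhibitory genes are high in TN1, lower in TN2 and near 0 in TN3 and HC, whereas Slc17a6 and Slc17a7 are present in all 4, and Slc17a7 is highest in HC at 247 CPM.

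UMIs summed per area were compared between the 3 TN areas and HC with edgeR's quasi-likelihood test, in which the spread comes from the TN areas alone. Of 14902 genes tested over all spots, 0 passed an adjusted p of 0.05, a background of 0%, while 1271 had an unadjusted p under 0.05 and DESeq2 called 144. The 6 members tested were accordingly at 0 of 6, and Slc17a8 did not pass the filter on low counts. Slc17a7 had a log2 fold change of -1.08 (SE 0.38, edgeR adjusted p 0.556), with all 3 TN areas below HC, as for 30.6% of the genes tested. For Slc17a6 the log2 fold change was -0.30 (SE 0.53, edgeR adjusted p 0.842). The 4 inhibitory genes had log2 fold changes from 3.36 (SE 1.71, Gad1) to 6.92 (SE 3.51, Slc32a1), with edgeR adjusted p-values from 0.564 to 0.568. Without TN1 they were 2.24 for Gad1, 2.74 for Gad2, 5.11 for Slc32a1 and 4.11 for Slc6a5. Their standard errors were large, as the TN areas differed among themselves, with a TN mean of 12.4 ± 15.6 CPM (SD, n = 3) for Slc6a5. The call for Slc17a7 depended on TN1. Without it the log2 fold change was -1.33 with an edgeR adjusted p of 0.0371, in a fit where 14.8% of genes passed and the lone HC area was taken to vary like TN2 and TN3.

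To place the genes within the tissue, spots were sorted into 10 clusters with the 7 genes and the lists of other transmitter genes left out of the variable genes, so that their levels could not shape the clusters directly. Clusters 2 and 8 were named sensory neuron by their markers, such as Tac1 and Avil, with scores of 1.63 and 0.97, and were taken as the ganglion. Cluster 4, with 1.17 for sensory neuron markers and 1.25 for peripheral myelin, was left unnamed. The 10 leading genes of cluster 8 held the nerve injury genes Csrp3, Gal and Gap43 and none of the sensory neuron list, HC had 0 spots in it, and results of the ganglion are therefore also given for cluster 2 alone. Cluster 7 held 437 spots of TN1, 130 of TN2 and 0 of TN3 and HC. By score it would have been called central myelin (1.66), but its leading genes were Rasgrf1, Lamp5 and Slc7a10, with Kcnc1 of the central neuron list and no central myelin marker, so it is left with its number. It had the highest central neuron score of the 10 clusters (1.12), a mean over the 10 genes of that list, although the summed list was lower there (1102 to 1585 CPM) than in the areas of cluster 2 (1841 to 2708 CPM). The sensory neuron list summed to 749 to 1065 CPM there, against 6507 to 10339 CPM in the areas of clusters 2 and 8. The summed central myelin list stood at 1058 to 1571 CPM in cluster 7 and the astrocyte list at 1833 to 2725 CPM, with 8 of 8 and 6 of 6 markers detected, and their part in the levels below was not tested.

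Cluster 7 was where the inhibitory genes lay. It held 8.37% of all spots and 6.50% of all UMIs, but 85.3% of the Slc32a1 UMIs, 80.5% of those of Slc6a5, 69.6% of those of Gad2 and 66.5% of those of Gad1. Gad1 reached 49.1 CPM in TN1 and 49.2 CPM in TN2, so the areas were alike within this cluster. Gad2 was at 35.8 CPM in TN1 and 15.1 CPM in TN2. Slc32a1 was at 85.8 CPM in TN1 and 56.3 CPM in TN2, and Slc6a5 at 106 CPM in TN1 and 62.0 CPM in TN2. For Gad2, Slc32a1 and Slc6a5, TN1 was thus the higher of the 2 areas, and for each of the 4 genes the lower value in cluster 7 was above the highest value of any area in any other cluster. The same was true of 3.21% of the 16088 genes that were detected in 10 or more spots.

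The next clusters in order overlapped each other for each of the 4 genes. Cluster 3, named after blood and bone markers, had 18.3 CPM of Gad1 in TN2 and 14.4 in TN1, but 1.09 in TN3 and 1.0 in HC. These levels rest on only 22 Gad1 UMIs in the 869 spots of cluster 3, at a median of 6046 UMIs per spot. Cluster 1, named after central myelin markers, had 16.5 CPM of Slc32a1 in TN1 and 10.1 in TN2, but no UMI of it in the 224 spots of TN3 or the 434 of HC. Thus the same cluster carried inhibitory UMIs in the areas that had cluster 7 spots and few or none in those that had not. In the share of spots with a UMI, Gad1 was found in 34.3% of the cluster 7 spots of TN1 (29.9 to 39.0), with a median of 12447 UMIs per spot. In HC cluster 2, taken as ganglion, it was found in 2.88% (1.74 to 4.46) at a median of 36265 UMIs.

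Slc17a6 also had its highest level in cluster 7, without overlap but by a smaller step. It was at 146 CPM in TN1 and 144 CPM in TN2. In cluster 2 it was at 125 CPM in both TN1 and TN2, at 93.2 in TN3 and at 102 in HC. In cluster 8 TN1 had 102 CPM of it, TN2 had 105 and TN3 had 82.2. The areas of clusters 2 and 8 overlapped, and both lay above cluster 4 (65.2 to 81.8 CPM), whose spots were not named. The remaining clusters lay at mean levels from 53.5 ± 31.3 CPM (SD, n = 4 areas) in cluster 3 down to 19.9 ± 6.63 CPM (SD, n = 2 areas) in cluster 5, the cluster named after peripheral myelin.

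**Figure D2:**
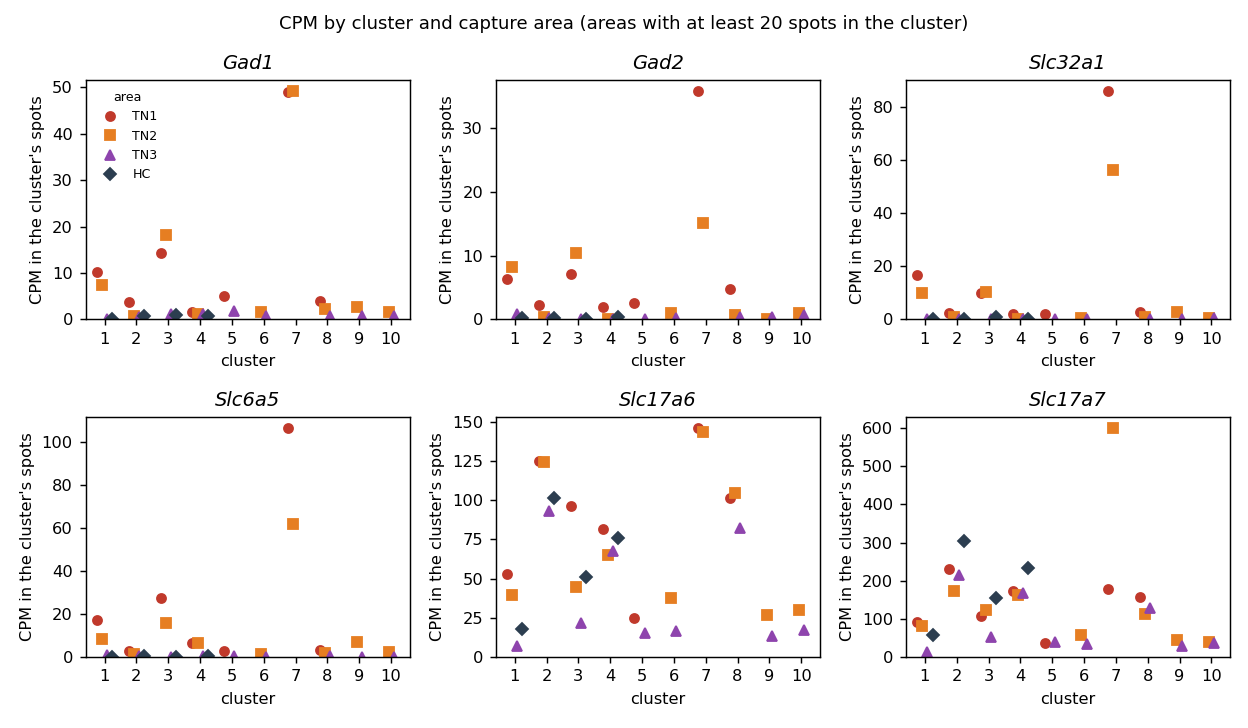
CPM of 6 genes (y axis, linear, 1 panel a gene) in the spots of each of the 10 clusters (x axis), with 1 point for each capture area that had at least 20 spots in the cluster. The inhibitory genes peak in cluster 7, seen in TN1 and TN2 only, and Slc17a7 in that cluster is at 600 CPM in TN2 and 178 CPM in TN1.

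The 2 areas of cluster 7 differed most in Slc17a7. It stood at 178 CPM in TN1 and 600 CPM in TN2, while Slc17a6 was at 146 and 144 CPM. The ratio of Slc17a7 to Slc17a6 UMIs, used here to compare areas and not the genes, was 1.22 in TN1 (1.11 to 1.34) and 4.17 in TN2 (3.76 to 4.64). The ratio in TN2 was the highest of any cluster and area. A Slc17a7 UMI was in 130 of 130 spots of the cluster in TN2 and in 325 of 437 in TN1, whose spots were less deeply sequenced. Of 5 listed markers of cerebellar neurons, Gabra6, of granule cells, was at 0.874 CPM in TN1 and 82.9 CPM in TN2. Cbln1 was at 101 and 188 CPM, and the Purkinje cell gene Pcp2 at 0 in both. The 5 genes summed to 102 CPM in TN1 and 274 CPM in TN2, nearly all of it from Gabra6 and Cbln1. No UMI was found for 2 of the 5 in TN1 and for 1 in TN2. Within TN2, the cluster 7 spots with a Gabra6 UMI (44, median 26728.5 UMIs) had 605 CPM of Slc17a7, and those without (86, median 20627.5 UMIs) had 597 CPM. Slc6a5 was at 56.3 and 66 CPM in the same groups of spots, and Slc17a6 at 138 and 148 CPM. Detection of Gabra6 depends on depth, which differed between the 2 groups of spots. The part of cerebellar neurons in the Slc17a7 levels was not tested.

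In the ganglion, each TN area had less Slc17a7 than HC, as for 29.6% of the genes tested there, which was not so for Slc17a6. TN1 had 211 CPM of Slc17a7, TN2 had 121, TN3 had 183 and HC had 304. Slc17a6 was at 119, 108, 89.1 and 102 CPM in the same order, with HC inside the TN range. The ganglion held 203, 365, 162 and 660 spots. Of 12826 genes tested there with edgeR, 0 passed an adjusted p of 0.05, a background of 0%, with 1182 at an unadjusted p under 0.05 and 116 called by DESeq2. Slc17a7 had a log2 fold change of -0.89 (SE 0.31, edgeR adjusted p 0.538) and Slc17a6 of -0.02 (SE 0.22, edgeR adjusted p 0.987). Without TN1, Slc17a7 passed, with a log2 fold change of -1.07 and an edgeR adjusted p of 0.00572, and 8.29% of genes did so in that fit. Whether the changes of the 2 genes differ from each other was not tested.

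Part of the ganglion in the TN areas was cluster 8, which HC lacked. Summed nerve injury genes were at 2257 to 2803 CPM in its 3 areas, with 7 of 7 detected, at 896 to 1235 CPM in cluster 2 of TN, and at 493 CPM in cluster 2 of HC. Slc17a7 was lower in cluster 8 than in cluster 2 of the same area, with ratios of 0.673 in TN1 (0.601 to 0.752), 0.646 in TN2 (0.579 to 0.722) and 0.589 in TN3 (0.517 to 0.670). Slc17a6 was closer between the 2 clusters, with ratios of 0.814 in TN1 (0.705 to 0.936), 0.840 in TN2 (0.741 to 0.955) and 0.883 in TN3 (0.743 to 1.05). In cluster 2 alone, Slc17a7 was still below HC in all 3 TN areas, TN1 having 231 CPM, TN2 173 and TN3 216 against 304 for HC. With cluster 2 alone as the ganglion, its log2 fold change was -0.60 (edgeR adjusted p 0.426), a choice made after the data had been seen. Connective tissue and macrophage markers also differed between these clusters and areas. In the TN areas of cluster 8 they summed to 1351 to 3571 CPM (6 of 6 genes) and 991 to 1371 CPM (6 of 6 genes), in those of cluster 2 to 988 to 2065 and 525 to 558 CPM, and in cluster 2 of HC to 1075 and 217 CPM. The connective tissue sum in cluster 2 of TN1, 988 CPM, was below that of HC. The peripheral myelin list stood at 14430 to 17630 CPM in cluster 8. In cluster 2 it stood at 8164 to 11464 CPM in TN and 15145 CPM in HC. The sensory neuron list was at 6507 to 7689 CPM in cluster 8. In cluster 2 it was at 6907 to 10339 CPM in TN and 7777 CPM in HC. The part of these lists in the Slc17a7 levels was not tested.

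The ratio of Slc17a7 to Slc17a6 UMIs was higher in HC than in any TN area in each of the clusters 1 to 4, with intervals apart from all of those areas in cluster 2 alone. In HC it was 3.00 over all spots, 2.99 in cluster 2, 3.05 in cluster 4, 3.00 in cluster 3 and 3.21 in cluster 1, so that the clusters of HC did not differ beyond their counting intervals. In cluster 2 it was 1.85 in TN1 (1.70 to 2.01), 1.39 in TN2 (1.2 to 1.62), 2.31 in TN3 (2.06 to 2.61) and 2.99 in HC (2.86 to 3.12), and no 2 areas had overlapping intervals. In cluster 8 TN1 had a ratio of 1.53, TN2 of 1.07 and TN3 of 1.54, each below cluster 2 of the same area, with overlapping intervals in TN1 alone.

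**Figure D3:**
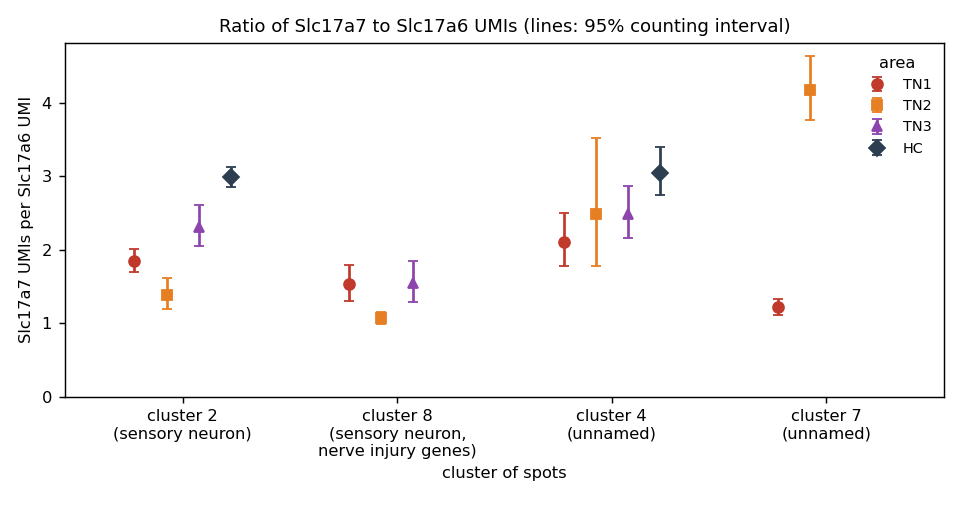
UMIs of Slc17a7 per UMI of Slc17a6 (y axis) in 4 clusters of spots (x axis), 1 point for each capture area with at least 20 spots, with 95% exact intervals for counting error. In cluster 2 HC is highest at 2.99 and TN2 lowest at 1.39, and in cluster 7 TN2 stands at 4.17 and TN1 at 1.22.

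Inhibitory UMIs in the ganglion were few and followed the area. TN1 had 3.80 CPM of Gad1, TN2 had 1.98, TN3 had 0.587 and HC had 0.733. Slc32a1 had 25 UMIs in the ganglion of TN1 and 12 in that of TN2, and none in TN3 and HC. The 0 of 162 spots in TN3 allows a share of up to 1.85%, and the 0 of 660 spots in HC a share of up to 0.455%. With HC at 0 no fold is given for Slc32a1, whose edgeR adjusted p was 0.540. The other inhibitory genes had edgeR adjusted p-values of 0.624 for Gad1, 0.561 for Gad2 and 0.559 for Slc6a5. The areas with the most ganglion UMIs of these genes were those with cluster 7 spots, in the same order, and the part of that tissue in the ganglion UMIs was not tested.

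The makeup of the inhibitory UMIs changed with the place. In cluster 7, Gad1 made up 17.7% of the UMIs of the 4 genes in TN1 (15.9 to 19.7, of 1586 UMIs) and 26.9% in TN2 (23.3 to 30.8, of 568). Outside it, Gad1 made up 27.2% in TN1 (22.3 to 32.5, of 309 UMIs), 32.6% in TN2 (26.7 to 39.0, of 239), 65.9% in TN3 (50.1 to 79.5, of 44) and 60.9% in HC (45.4 to 74.9, of 46). The vesicular transporter Slc32a1 made up 31.0% and 30.8% in cluster 7 of TN1 and TN2, and 4.55% and 6.52% in TN3 and HC. In the areas without cluster 7 the few inhibitory UMIs were thus mostly of Gad1, by shares whose intervals did not overlap those of TN1 and TN2. No spot of HC held more than 1 Gad1 UMI, and its 28 UMIs lay in 28 spots. Whether these are transcripts of local cells or background was not tested.

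**Figure D4:**
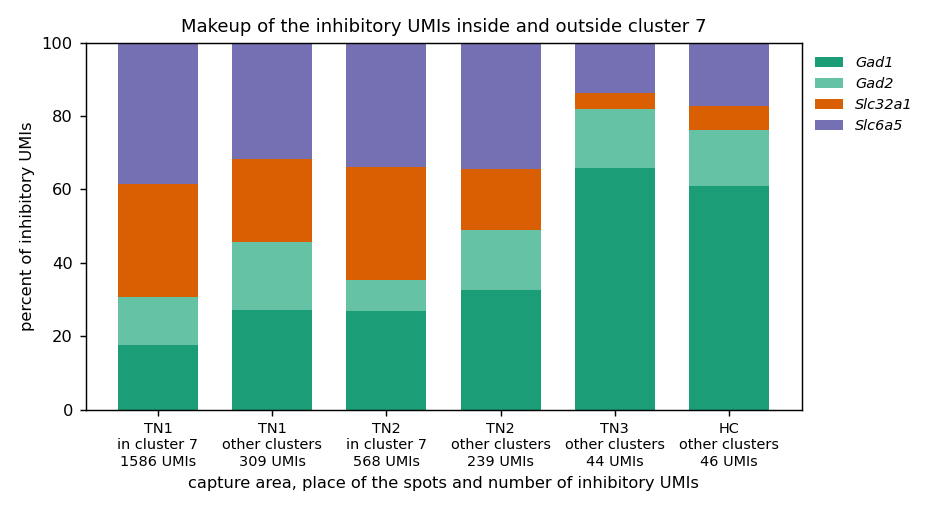
Percent of the inhibitory UMIs (y axis) that each of the 4 inhibitory genes made up, as stacked bars for each capture area inside and outside cluster 7 (x axis), with the number of UMIs under each bar. Gad1 makes up 17.7% of them in cluster 7 of TN1 and 65.9% in TN3, while Slc32a1 goes from 31.0% to 4.55%.

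Inhibitory and excitatory genes often shared a spot, which is not evidence of a shared cell. Over all spots, both sets had a UMI in 31.0% of spots in TN1 (492 spots, 28.7 to 33.3), 22.5% in TN2 (283, 20.2 to 24.9), 1.41% in TN3 (27, 0.930 to 2.04) and 2.04% in HC (41, 1.47 to 2.75). TN1 and TN2 stood apart from TN3 and HC. Thinned to 2000 UMIs per spot, with 9, 16, 116 and 9 shallower spots left out, the shares were 5.39%, 2.74%, 0.0555% and 0.0499%, and the order of TN1 and TN2 above TN3 and HC was kept. In cluster 7, both sets were found in 319 of 437 spots of TN1 (73.0%) and 110 of 130 of TN2 (84.6%). Excitatory UMIs were in 90.6% of the TN1 spots with an inhibitory UMI and in 87.1% of those without, at median depths of 13046 and 9254 UMIs. In TN2, all 130 spots had an excitatory UMI. After thinning to 2000 UMIs per spot, the shares with and without an inhibitory UMI were 41.25% and 45.8% in TN1, in reversed order. In TN2 they were 75.7% and 72.0%.

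The balance within cluster 7 varied from spot to spot. Among spots with at least 5 UMIs of the 7 genes, inhibitory genes made up a median of 44.4% in TN1 (quartiles 20 and 63.9, 295 spots) and 14.3% in TN2 (7.36 and 31.7, 127 spots). In TN1, 111 of these spots were mostly inhibitory, 25 had excitatory UMIs only and 8 had inhibitory UMIs only. In TN2 the same counts were 8, 19 and 0. The highest spot had 35 inhibitory UMIs in TN1 and 31 in TN2. Since Slc17a7 was higher in TN2, the share of inhibitory UMIs also moved with that gene.

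**Figure D5:**
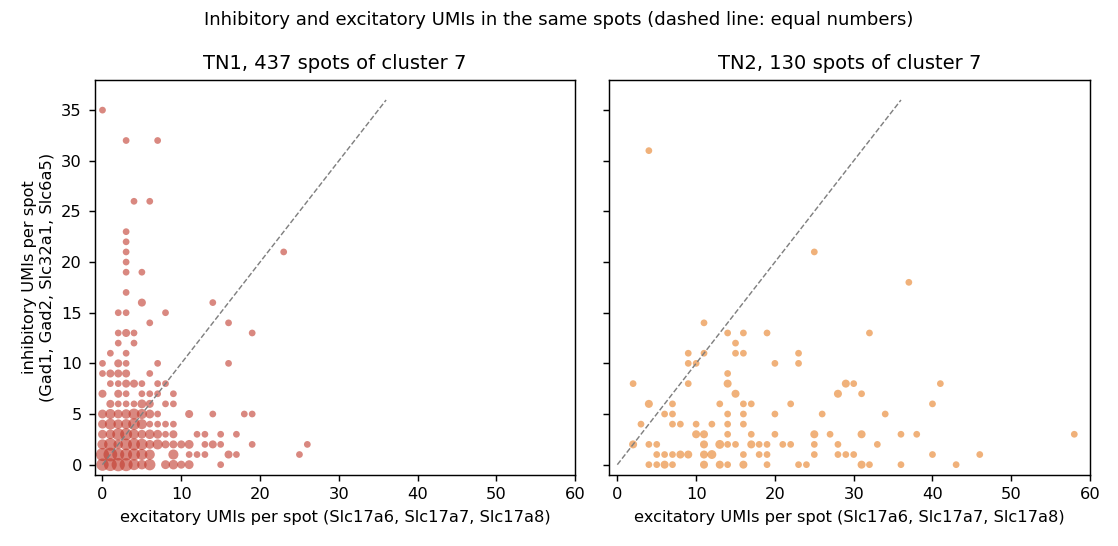
Each point is a combination of excitatory (x axis) and inhibitory (y axis) UMIs seen in the spots of cluster 7, larger where more spots share it, for TN1 at left and TN2 at right, and the dashed line marks equal numbers. Spots of TN1 spread along both axes, with 111 of 295 mostly inhibitory, and those of TN2 lie mainly below the line, with 8 of 127.

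GABAergic and glycinergic genes were often found in the same spots of cluster 7. In TN1, 216 spots had a Gad1 or Gad2 UMI, 243 had a Slc6a5 UMI and 144 had both, so that Slc6a5 was found in 66.7% of the Gad spots and in 55.6% of all spots of the cluster. In TN2, 83 had a Gad UMI, 66 had Slc6a5 and 48 had both, which is 57.8% of the Gad spots, against 50.8% of all spots of the cluster. In HC, 1 spot of 2013 held both. Across the spots of cluster 7, levels of Slc32a1 and Slc6a5 had a Pearson r of 0.46 in TN1 (435 spots) and 0.61 in TN2 (130 spots), the highest of the 15 gene pairs in both areas. This describes spots that share libraries and vary in depth. Slc17a6 and Slc17a7 had an r of 0.02 and 0.04, so that in sparse counts no relation between the 2 was seen.

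Other transmitter genes were taken from lists of 4 to 15 genes. Of 10 genes that handle GABA and glycine, 9 were higher in both areas of cluster 7 than in any area of clusters 2 and 8, and 1 overlapped. Of the 16088 genes detected in 10 or more spots, 11.1% were higher in this sense and 21.1% were lower. They included the glycine transporter Slc6a9 at 181 ± 40.8 CPM (SD, n = 2 areas) in cluster 7, 15.5 ± 11.2 (SD, n = 4) in cluster 2 and 13.8 ± 8.18 (SD, n = 3) in cluster 8, and Abat, the GABA transaminase, at 38 ± 2.61, 6.86 ± 0.828 and 6.22 ± 1.66 CPM. The exception was Slc6a13, GAT2, at 14.4 ± 15.6, 15.5 ± 13.7 and 23.6 ± 19.1 CPM. Of 10 genes of glutamate handling, 8 were higher in cluster 7, 1 overlapped and 1 was lower. Glul, Slc1a2 and Slc1a3, genes of astrocytes, were among those higher in cluster 7, where the astrocyte list was higher too.

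Few of the factors and peptides that mark classes of inhibitory neuron were set apart in cluster 7. Of the 10 listed, 6 were among the genes detected in 10 or more spots. Some overlapped without being low. Calb2 was at 171 ± 8.79 CPM in cluster 7 and 153 ± 69.3 in cluster 2, and Sst at 197 ± 193 and 35.0 ± 20.2 CPM. Of 10, only Pvalb (1587 ± 950 CPM in cluster 7, 266 ± 31.3 in cluster 2) and Tal1 were higher in cluster 7, and the other 8 overlapped, with Pax2 and Lhx5 at 0 in all of these clusters. Of 10 for excitatory neurons, Lhx2 and Barhl1 were higher, Cacna2d1 and Isl1 were lower and 6 overlapped. For acetylcholine, 4 of 4 overlapped, with Chat at 0. Of 8 monoamine genes, Ddc was higher, Tph2 lower and 6 overlapped. The 14 synaptic vesicle genes found split into 4 higher, 4 lower and 6 overlapping, with Sv2a at 226 ± 56.9 CPM in cluster 7 and 52.5 ± 12.9 in cluster 2, and Stx1a at 6.29 ± 2.47 and 27.2 ± 4.15 CPM. These counts are descriptions, to be read beside the 11.1% and 21.1% of all genes, and were not tested.

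Between TN and HC, none of these list genes passed the edgeR test over all spots or in the ganglion, as none did among all genes. The vesicle list had 12 of 14 tested genes with a log2 fold change below 0 over all spots (median -0.59) and 10 of 13 in the ganglion (median -0.42), whereas the medians over all genes were 0.06 and 0.03. Among all genes tested, 6757 of 14902 were below 0 over all spots and 6054 of 12826 in the ganglion. Syn1, a vesicle phosphoprotein, was at 277, 209 and 249 CPM on the TMM-scaled library sizes of that fit in the ganglion of TN1, TN2 and TN3 and at 426 CPM in HC (log2 fold change -0.80, edgeR adjusted p 0.538). Complexin 1, Cplx1, was at 1084, 770, 965 and 1563 CPM on the same scale and in the same order. As for Slc17a7 and 29.6% of the genes tested there, all 3 TN areas were below HC for both. Of the 13 vesicle genes tested in the ganglion, 3 had an unadjusted edgeR p under 0.05, Syn1 and Cplx1 among them. The same held for 1182 of all 12826 genes tested there. Genes that handle GABA and glycine had medians of 0.08 over all spots (9 tested) and -0.33 in the ganglion (8 tested), and those of glutamate handling 0.30 (10 tested) and -0.04 (9 tested). The medians over all spots and in the ganglion were -0.01 and -0.55 for inhibitory neuron identity, 1.63 and 1.0 for excitatory neuron identity, -0.76 and -0.44 for acetylcholine, and -0.81 and 0.15 for monoamine genes, with 2 to 7 genes tested in each. The excitatory medians rest partly on genes near the floor. Over all spots of HC, Lhx2 was at 0, Barhl1 at 0.10 and Pou4f1 at 0.05 TMM-scaled CPM. Isl1, the most abundant of that list at 48.2 CPM there, was the 1 gene below 0. Its log2 fold change was -1.12 over all spots and -0.38 in the ganglion.

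Genes with the pattern most like each member were ranked by Pearson r of log2 CPM over 24 sums of regions and areas, which share libraries, and the r is a description. Slc32a1, Gad1 and Gad2 were among each other's nearest, with an r of 0.97 for Slc32a1 and Gad1. Slc30a3, a vesicular zinc transporter, had 0.97 with both. Slc6a5 was nearest to Rasgrf1 (0.98), then to Slc7a10 (0.96), an amino acid transporter. Among the nearest to Slc17a6 was Chgb (0.97), and Slc17a7 was nearest to Cplx1 (0.97), both genes of neuronal secretion. No inhibitory gene was among the 5 nearest to an excitatory one, and none the other way.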

How the data were processed

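Visium libraries of 3 TN areas and 1 HC area were processed by the authors with Space Ranger 1.2.0 and STAR (version not given). Genome build and annotation: not given in the sources used here. Deposited as 1 matrix, the values are raw UMI counts of 32623 genes in 6773 spots, neither normalized nor filtered here, and barcode suffixes gave the capture area. Totals ran from 23546025 to 41335930 UMIs per area, and intervals (95%, exact) cover counting error only. A count of 0 is given with the limit that 3 counts would set.

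Spots were clustered with sctransform 0.4.2 and Seurat 5.3.0 (R 4.3.3), on variable genes without the 7 genes and the transmitter lists, by K-means into 10 clusters, named from marker lists. Areas with under 20 spots in a cluster gave no level there. Multiple cells per spot were not resolved.

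UMIs summed per area were compared between TN and HC with edgeR 4.0.16 (TMM, filterByExpr, quasi-likelihood F test, Benjamini-Hochberg adjusted p under 0.05, two-sided), with the SE taken as the log2 fold change over the root of F. HC is a single area, so these p-values assume that it varies like the TN areas. DESeq2 1.42.0 was an alternative. Co-detection was also measured after thinning to 2000 UMIs per spot (Python 3.11.15, numpy 2.4.6, scipy 1.17.1). The fit was tested on simulated data.

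The 7 genes, the lists and the tests were chosen with earlier results of these data known. All 7 are named, and for each the 5 genes with the most similar pattern were listed by Pearson r, of which some are not reported here. Lists covered GABA and glycine handling, inhibitory and excitatory neuron identity, glutamate handling, acetylcholine, monoamine and synaptic vesicle genes. The alternatives were the normalization, the filter, each TN area left out, gene and spot filters, other clusterings and other detection limits.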

Additional observations from a re-analysis of the deposited data

How the results depend on the processing

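Of the log2 fold changes of the 6 genes tested (Slc17a8 was not), under alternatives, 118 kept their direction and their side of the threshold, 5 changed sign and 2 passed it. All 5 sign changes were of Slc17a6. In the ganglion its log2 fold change was 0.013 once hemoglobin, ribosomal protein and mitochondrial genes were dropped, 0.091 with clusters from log-normalised counts and 0.12 with cluster 2 alone. Leaving out each TN area in turn gave -0.12 to 0.11 for Slc17a6 in the ganglion and -0.66 to 0.022 over all spots, the positive values without TN3. The 2 that passed were Slc17a7 without TN1, within ranges of -1.07 to -0.66 in the ganglion and -1.33 to -0.85 over all spots. For the inhibitory genes the ranges over all spots were 2.24 to 3.91 (Gad1), 2.74 to 5.21 (Gad2), 5.11 to 7.53 (Slc32a1) and 4.11 to 6.50 (Slc6a5), and in the ganglion 0.86 to 1.91 (Gad1), 1.60 to 3.40 (Gad2) and 1.93 to 2.97 (Slc6a5). Counts of genes past the threshold ran from 0 to 2171 over all spots and from 0 to 1071 in the ganglion when an area was left out, the highest without TN1 and 29 in the ganglion without TN2. DESeq2 called 144 and 116 genes, and in the ganglion no filter on low counts gave 21, log-normalised clustering 5 and cluster 2 alone 6. The cause was not tested.

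Without the spots of cluster 7, log2 fold changes over all spots were 1.81 for Gad1, 4.33 for Slc32a1 and -1.29 for Slc17a7. This alternative, cluster 2 alone, and keeping clusters by number were chosen after seeing the data. Co-detection in TN1, TN2, TN3 and HC was 5.39%, 2.74%, 0.0555% and 0.0499% of spots after thinning, and 16.3%, 9.87%, 0.156% and 0.149% with at least 2 UMIs for each set. With 8 clusters Slc17a7 in the ganglion of HC was at 294 CPM. Clusters from log-normalised counts cut the ganglion of TN2 from 365 to 57 spots, and its Slc17a7 rose from 121 to 157 CPM. TN1 was then at 211 CPM, TN3 at 201 and HC at 302. Of the shares of spots with a UMI of a gene, 36 moved and 48 did not. No paired analysis was possible because HC is 1 area, so that the groups share fewer than 2 replicate numbers, and its spots are not mapped to animals. A single HC area and few inhibitory UMIs in TN3 and HC limit the comparison, whatever the depth.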
